A study of Arabidopsis thaliana with 6 samples.

Results

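The set described here holds 52 genes of the core cell cycle machinery among 33323 loci measured by RNA sequencing in seeds of Arabidopsis thaliana. Its members were chosen by locus identifier from classes of known function, with earlier results of these data known. They take in 5 cyclin-dependent kinases (CDKs), 26 cyclins of the A, B and D types, 5 activators of the anaphase-promoting complex (APC/C), the spindle checkpoint gene MAD2 with 3 Aurora kinases, 9 CDK inhibitors, and the adaptors CKS1 and CKS2 with the kinase WEE1. Of the 52 genes, 51 averaged at least 0.5 RPKM (reads scaled to gene length and library size) over the libraries and were tested. CYCD7;1, a D-type cyclin known from the stomatal lineage, did not reach that level and was not tested.

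The study sequenced mRNA from whole seeds at 6 days after pollination, with 3 libraries from DD25::IaaH plants and 3 from wild type (WT) plants of Col-0, all pollinated by hand with their own pollen. The ecotype of both groups is labelled Col-0. IaaH, a bacterial enzyme, turns indole-3-acetamide into auxin. It is driven here by DD25, a promoter known for activity in the central cell, from which the endosperm arises. The labels do not say how many transgenic lines were used or how many plants stand behind each library. The p-values below measure the spread between these libraries, which the design text calls biological replicates. The question behind the study, by its title, is how auxin bears on endosperm cellularization.

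CDKs are active only when bound to a cyclin. D-type cyclins act mainly at the entry into the cycle, A-type cyclins around DNA synthesis and into mitosis, and B-type cyclins at mitosis. The APC/C then marks mitotic cyclins for destruction, with CDC20 as its activator at the onset of anaphase and CCS52 proteins later, and MAD2 holds CDC20 back until chromosomes are attached to the spindle. Inhibitors of the KRP and SIM families restrain CDKs and are known for their part in endoreduplication. Early endosperm nuclei divide without cell walls, and the tissue later forms walls around them. A whole seed also holds the embryo and the seed coat.

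Library depth, rebuilt from the steps in the RPKM values, was 6.50 to 10.8 M reads (M for mega) in the DD25::IaaH libraries and 8.95 to 17.8 M reads in the WT libraries. The share of annotated pseudogenes with reads was 21.3% to 32.9% in the DD25::IaaH libraries. It was 82.1% in WT 1, 63.8% in WT 2 and 27.7% in WT 3, so WT 1 and WT 2 stand apart from the other libraries in this measure. Calls that are lost without both are named with that value. Whole seeds do not separate tissues: fewer cells of a type and less RNA per cell cannot be told apart in any value below.

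Across the set, 11 genes fell and 2 rose in DD25::IaaH seeds, and 38 did not pass the test (limma on log2(RPKM + 0.5), two-sided, adjusted p under 0.05 over 20880 genes). The 11 make up 21.6% of the tested members, where 6.72% of all tested genes fell. The 2 that rose make up 3.92%, where 8.25% of all tested genes rose. A log2 fold change below 0 was found for 36 of 51 members, or 70.6%, against 46.5% of all tested genes. The median log2 fold change was -0.24 over the members and 0.03 over all tested genes. The 3 DD25::IaaH libraries all lay below the 3 WT libraries for 18 members and all above them for 3, where the same held for 14.9% and 18.4% of all tested genes. The summed level of the 52 genes was 847 to 937 RPKM in DD25::IaaH libraries and 1088 to 1214 RPKM in WT libraries. MAD2 alone gave a mean of 17.5 RPKM to the DD25::IaaH sums and 106 RPKM to the WT sums. The mean sum was lower in DD25::IaaH seeds in every class but the CDK inhibitors, though the libraries overlapped in some classes. With 1 library left out, the members that fell numbered 4, 6 and 5 without DD25::IaaH 1, 2 and 3, and 3, 4 and 10 without WT 1, 2 and 3. Those that rose numbered 1, 1 and 0, and 1, 1 and 3, for the same libraries left out. CDKB1;2 and MAD2 had by far the largest changes of the tested members, as the plot of fitted changes shows.

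**Figure D1:**
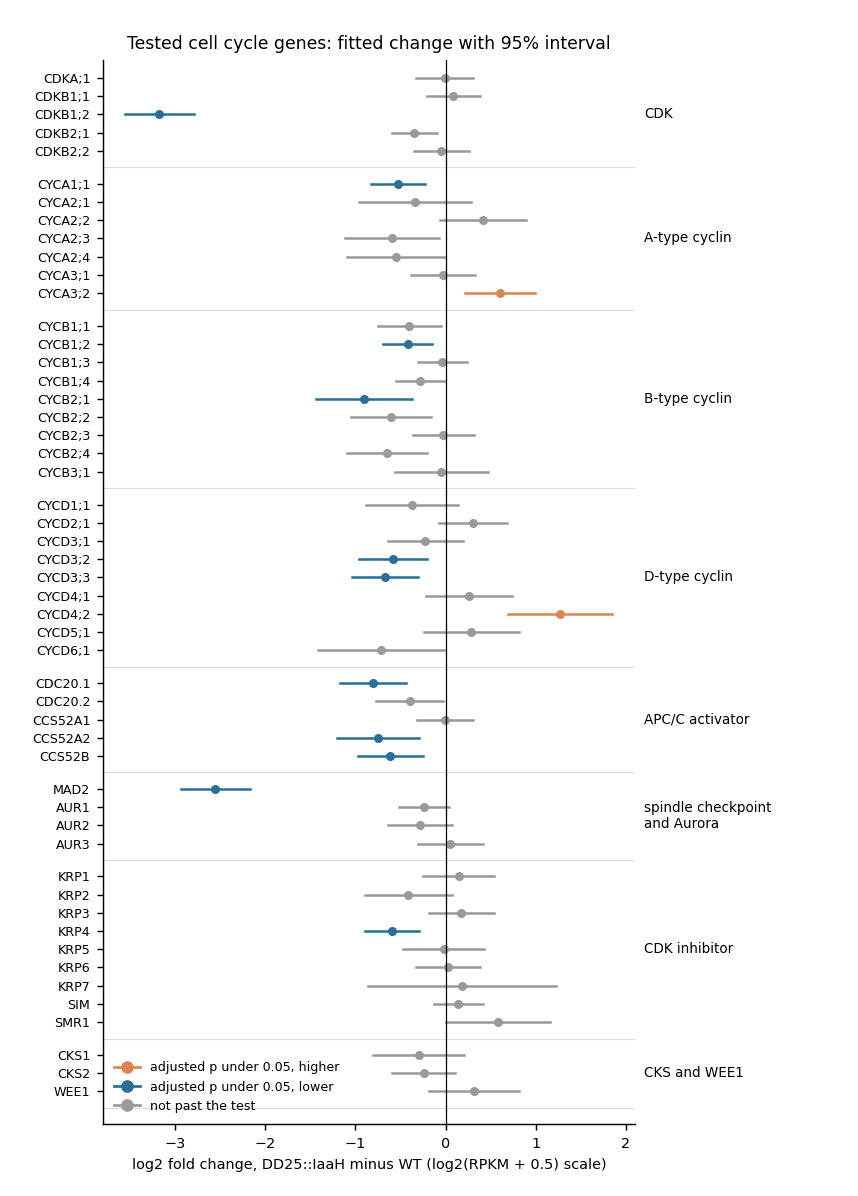
Log2 fold change (DD25::IaaH minus WT, on the log2(RPKM + 0.5) scale) with its 95% interval for the 51 tested members, grouped by class, where blue marks the 11 that fell, orange the 2 that rose and grey the 38 that did not pass the test. Changes of -3.18 in the CDK class and -2.56 for MAD2 lie apart from the other members, which range from -0.91 to 1.27.

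The levels themselves spanned a wide range. In DD25::IaaH seeds the highest member was CKS2 at 93.2 ± 15.8 RPKM (SD, n = 3), followed by CKS1 at 77.6 ± 12.0 and SIM at 64.3 ± 4.35 RPKM. In WT seeds CKS2 was also highest at 110.2 ± 14.0 RPKM, followed by MAD2 at 106 ± 21.0 and CKS1 at 98.0 ± 29.7 RPKM. Neighbours in these orders overlapped: CKS2 with CKS1 and CKS1 with SIM in DD25::IaaH seeds, and CKS2 with MAD2 and MAD2 with CKS1 in WT seeds. MAD2 ranked 19 of 52 in DD25::IaaH seeds and 2 of 52 in WT seeds. CDKB1;2 ranked 50 in DD25::IaaH seeds and 21 in WT seeds. The untested D-type cyclin was lowest in both groups, with 0 to 0.182 RPKM in DD25::IaaH libraries and 0.0864 to 0.186 RPKM in WT libraries, values that stand for very few reads.

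**Figure D2:**
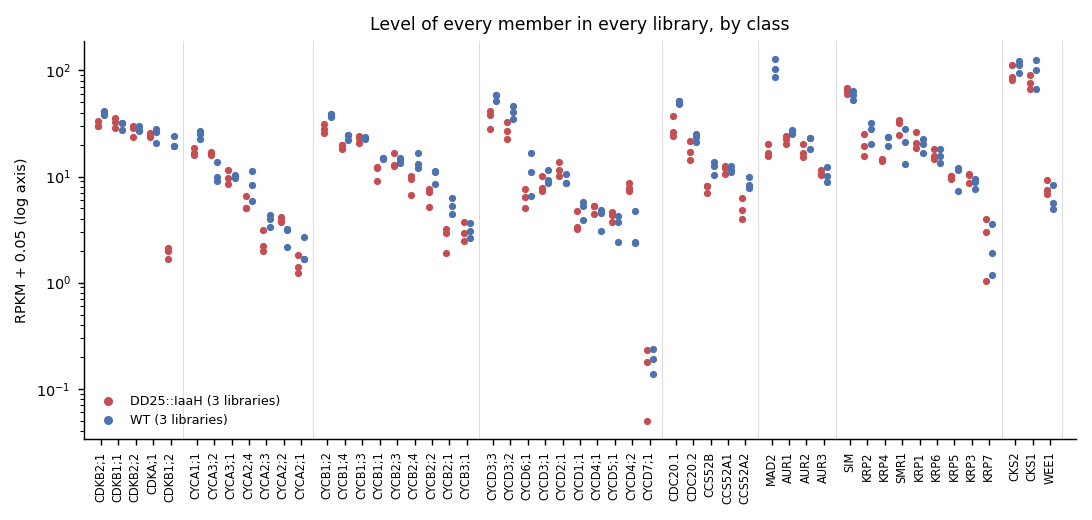
RPKM + 0.05 (log axis) of all 52 members in each of the 3 DD25::IaaH libraries (red) and the 3 WT libraries (blue), by class and ordered within a class by the WT mean. The lowest points belong to the member that was not tested.

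Among the CDKs, CDKB1;2 (AT2G38620) fell to 1.86 ± 0.227 RPKM in DD25::IaaH seeds, against 20.9 ± 2.60 RPKM in WT seeds (SD, n = 3 each), while its close paralog CDKB1;1 (AT3G54180) did not pass the test. Both encode plant-specific B-type CDKs of the entry into mitosis, known for symmetric divisions in the stomatal lineage. CDKB1;2 had 1.92, 2.05 and 1.61 RPKM in DD25::IaaH 1 to 3, against 19.2, 19.5 and 23.9 RPKM in WT 1 to 3. The groups were far apart, and each was tight. Its log2 fold change was -3.18 ± 0.17 (SE, 95% interval -3.56 to -2.79) with an adjusted p of 5.77e-06 in limma, and it passed in all 16 alternative settings. The rebuilt reads behind these values were 31, 20 and 22 in DD25::IaaH libraries and 513, 262 and 344 in WT libraries.

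CDKB1;1 had 28.7, 35.4 and 32.8 RPKM in DD25::IaaH libraries and 27.4, 31.9 and 31.9 RPKM in WT libraries. These groups overlapped, and the log2 fold change was 0.09 (95% interval -0.21 to 0.38) with an adjusted p of 0.725. CDKB1;2 therefore made up 6.27%, 5.48% and 4.69% of the summed CDKB1 level in DD25::IaaH libraries, and 41.3%, 37.9% and 42.8% in WT libraries. The log2 ratio of CDKB1;2 to CDKB1;1 averaged -4.12 ± 0.22 in DD25::IaaH seeds and -0.55 ± 0.15 in WT seeds (SD, n = 3 each, exact permutation p = 0.1, two-sided, the smallest that 3 against 3 libraries can give). The log2 ratio of CDKB1;1 to CDKA;1 averaged 0.39 ± 0.20 in DD25::IaaH seeds and 0.30 ± 0.10 in WT seeds, with an exact permutation p of 0.5.

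The coding sequences of this pair are 85.4% identical, and their longest identical run is 41 bases, shorter than a read. The windows before their gene starts differ in length and letters, and are shown because the pair behaved so differently (RefSeq, TAIR10.1, both on the plus strand). The first window is chr2:16152223-16152472, and the second, shortened so as not to enter the neighbouring gene, is chr3:20059584-20059670. No capitals are used, since none of the motifs searched (AACGG, TTTCCCGC and TTTGGCGC, on both strands) occurs in either.
CDKB1;2: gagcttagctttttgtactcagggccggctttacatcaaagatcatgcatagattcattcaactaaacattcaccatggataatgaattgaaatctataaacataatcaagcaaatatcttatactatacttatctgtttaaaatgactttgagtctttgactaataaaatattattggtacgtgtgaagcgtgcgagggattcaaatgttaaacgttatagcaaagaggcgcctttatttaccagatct
CDKB1;1: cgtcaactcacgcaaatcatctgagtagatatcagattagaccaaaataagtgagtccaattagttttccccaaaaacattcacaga

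CDKB1;2 shares 281 of its 1532 exon bases with AT2G38630 on the opposite strand. Whether the counting used strand is not stated, so reads in the shared stretch cannot be assigned to 1 gene with certainty. AT2G38630 averaged 4.65 ± 0.332 RPKM in DD25::IaaH seeds and 5.31 ± 1.08 RPKM in WT seeds, with a log2 fold change of -0.16 and an adjusted p of 0.641. Of the 3 tested genes within 3 loci on either side, 0 passed the test, and their log2 fold changes were -0.16 to -0.05.

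CDKA;1 (AT3G48750), the main CDK of DNA synthesis and mitosis, averaged 24.5 ± 0.934 RPKM in DD25::IaaH seeds and 24.9 ± 3.71 RPKM in WT seeds. Its log2 fold change was -0.01 (95% interval -0.33 to 0.31, adjusted p 0.974). The CDKB2 kinases act at mitosis. CDKB2;1 had 33.4, 30.1 and 29.8 RPKM in DD25::IaaH libraries and 41.3, 39.2 and 38.4 RPKM in WT libraries. Its groups did not overlap, but it missed the threshold (log2 fold change -0.35, adjusted p 0.0738). Of the 16 alternatives, it passed only under quantile scaling, at an adjusted p of 0.0422. CDKB2;2 had a log2 fold change of -0.05 (95% interval -0.35 to 0.26).

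Of the 7 A-type cyclins, 1 fell, 1 rose and 5 did not pass, with a median log2 fold change of -0.34. Each call is 14.3% of the class, where 6.72% of all tested genes fell and 8.25% rose. CYCA1;1 (AT1G44110), a cyclin of mitosis, had 15.9, 18.6 and 16.7 RPKM in DD25::IaaH libraries and 27.0, 25.1 and 22.4 RPKM in WT libraries. All DD25::IaaH libraries lay below all WT libraries, and the log2 fold change was -0.53 ± 0.13 (SE, adjusted p 0.0275). CYCA3;2 (AT1G47210), a cyclin linked to DNA synthesis, had 15.7, 16.7 and 16.8 RPKM in DD25::IaaH libraries and 8.94, 9.82 and 13.7 RPKM in WT libraries. Its DD25::IaaH libraries were all higher, with a log2 fold change of 0.60 ± 0.17 (SE, adjusted p 0.0483).

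Both A-type calls were lost in several fits without 1 library, each of which has fewer samples. The adjusted p of CYCA1;1 was 0.105 without DD25::IaaH 1, 0.0818 without DD25::IaaH 3, 0.0974 without WT 1 and 0.0933 without WT 2, and 0.352 without WT 1 and WT 2 together. Its log2 fold change was -0.60 to -0.47 with 1 library left out and -0.39 without both. That of CYCA3;2 was 0.112, 0.123 and 0.129 without DD25::IaaH 1, 2 and 3, and 0.149 and 0.152 without WT 1 and WT 2. Its log2 fold change was 0.48 to 0.78 with 1 library left out. Without WT 1 and WT 2 together it was 0.25, with an adjusted p of 0.531, and WT 3 was the WT library nearest to the DD25::IaaH ones. CYCA3;1, its paralog, averaged 9.88 ± 1.55 RPKM in DD25::IaaH seeds and 9.99 ± 0.408 RPKM in WT seeds and did not pass.

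The CYCA2 cyclins, partners of CDKB1 that are known to restrain endoreduplication, were low, at means of 1.42 to 5.49 RPKM in DD25::IaaH seeds and 1.95 to 8.45 RPKM in WT seeds. CYCA2;1, CYCA2;3 and CYCA2;4 had log2 fold changes of -0.34, -0.60 and -0.55, and CYCA2;2 had 0.42. None of the 4 passed the test, with adjusted p-values of 0.123 to 0.469. CYCA2;3 had 1.92, 3.102 and 2.15 RPKM in DD25::IaaH libraries and 4.26, 3.91 and 3.31 RPKM in WT libraries. CYCA2;2 had 3.68, 4.06 and 3.78 RPKM in DD25::IaaH libraries and 2.13, 3.08 and 3.17 RPKM in WT libraries. The groups of these 2 paralogs did not overlap and lay in opposite directions. Over all tested genes, groups did not overlap for 14.9% (lower) and 18.4% (higher).

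All 9 B-type cyclins had a log2 fold change below 0, and for 6 of them the groups did not overlap, but only CYCB1;2 and CYCB2;1 passed the test. Those 2 are 22.2% of the class, where 6.72% of all tested genes fell. A log2 fold change below 0 was found for 46.5% of all tested genes, and lower groups without overlap for 14.9%. The median of the 9 was -0.40. CYCB1;2 (AT5G06150) had 28.2, 31.4 and 25.6 RPKM in DD25::IaaH libraries and 36.5, 38.9 and 38.9 RPKM in WT libraries, and fell by 0.42 on the log2 scale (SE 0.12, adjusted p 0.049). CYCB2;1 (AT2G17620) had 1.85, 2.87 and 3.13 RPKM in DD25::IaaH libraries and 4.39, 6.24 and 5.23 RPKM in WT libraries, and fell by 0.91 (SE 0.24, adjusted p 0.0336). CYCB1 and CYCB2 proteins are partners of CDKs in mitosis, and CYCB1 cyclins are known to be needed for the nuclear divisions of the endosperm.

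Both calls were lost in most fits without 1 library. The adjusted p of the CYCB1 gene was 0.136, 0.0544 and 0.148 without DD25::IaaH 1, 2 and 3, and 0.0934, 0.151 and 0.0707 without WT 1, 2 and 3. That of the CYCB2 gene was 0.11 and 0.0636 without DD25::IaaH 1 and 2, and 0.0527, 0.128 and 0.0536 without WT 1, 2 and 3. Their log2 fold changes in the fits without 1 library were -0.49 to -0.35 and -1.03 to -0.71. With both WT 1 and WT 2 left out, the adjusted p was 0.268 for the CYCB1 gene and 0.266 for the CYCB2 gene. CYCB2;4 and CYCB2;2 lay just outside the threshold, with log2 fold changes of -0.65 and -0.60 and adjusted p-values of 0.057 and 0.0722. The first passed with limma voom on rebuilt reads and with the replicate block, at adjusted p-values of 0.0315 and 0.0497. The second passed without WT 3, at 0.0361.

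CYCB1;1 (AT4G37490), long used as a marker of cells between DNA synthesis and mitosis, had 12.2, 12.1 and 9.09 RPKM in DD25::IaaH libraries and 14.8, 14.5 and 14.8 RPKM in WT libraries. Its groups did not overlap, and its log2 fold change of -0.40 had an adjusted p of 0.118. CYCB1;4 had non-overlapping groups too, with a log2 fold change of -0.28 and an adjusted p of 0.163. CYCB1;3, CYCB2;3 and CYCB3;1 had log2 fold changes of -0.04, -0.02 and -0.05, and the sign of each turned when 1 library was left out. The summed B-type level was 111, 128 and 109.8 RPKM in DD25::IaaH libraries and 142, 154 and 142 RPKM in WT libraries.

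Promoters of B-type cyclins are known for the mitosis-specific activator (MSA) element, which is bound by MYB3R transcription factors and has the core AACGG. This core occurs on either strand in the 250 bases before 6 of the 9 B-type cyclin genes, in 19 of the 52 members (36.5%) and in 20.6% of 27443 protein-coding promoters of the same length. Of the 11 members that fell, 4 held it (36.4%), and of the 2 that rose, 0 did. Over all tested protein-coding genes that fell, the share was 21.7%, against 21.8% of all tested protein-coding genes.

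CYCB2;1, CYCB2;2, CYCB2;3 and CYCB1;3 carried 3 cores each in the same order of strands, minus, plus, minus, and CYCB1;2 carried 4. CYCB2;4 held 0 cores in its window, at a log2 fold change of -0.65. The windows of CYCB2;1, CYCB2;2, CYCB2;3 and CYCB1;2 are shown because genes with the same arrangement differed in their change. In these windows (RefSeq, TAIR10.1), AACGG or its reverse complement CCGTT is in capitals. They lie at chr2:7663805-7664054 (plus strand), chr4:16901346-16901595 (plus), chr1:7137829-7138078 (minus) and chr5:1861704-1861953 (minus), in the order printed.
CYCB2;1: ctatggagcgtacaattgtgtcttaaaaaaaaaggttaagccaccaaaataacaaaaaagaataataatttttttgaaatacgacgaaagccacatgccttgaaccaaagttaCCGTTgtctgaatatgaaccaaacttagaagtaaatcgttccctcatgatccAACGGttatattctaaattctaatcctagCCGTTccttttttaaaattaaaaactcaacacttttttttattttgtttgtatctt
CYCB2;2: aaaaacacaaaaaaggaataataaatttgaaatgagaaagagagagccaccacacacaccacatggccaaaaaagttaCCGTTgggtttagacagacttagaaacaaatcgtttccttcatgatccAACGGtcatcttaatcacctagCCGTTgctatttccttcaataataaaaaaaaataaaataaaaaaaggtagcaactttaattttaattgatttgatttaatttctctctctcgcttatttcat
CYCB2;3: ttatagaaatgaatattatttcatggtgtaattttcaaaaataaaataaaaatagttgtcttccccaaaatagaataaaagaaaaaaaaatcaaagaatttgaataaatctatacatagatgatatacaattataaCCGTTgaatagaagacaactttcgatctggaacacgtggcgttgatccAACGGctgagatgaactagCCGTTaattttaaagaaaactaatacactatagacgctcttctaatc
CYCB1;2: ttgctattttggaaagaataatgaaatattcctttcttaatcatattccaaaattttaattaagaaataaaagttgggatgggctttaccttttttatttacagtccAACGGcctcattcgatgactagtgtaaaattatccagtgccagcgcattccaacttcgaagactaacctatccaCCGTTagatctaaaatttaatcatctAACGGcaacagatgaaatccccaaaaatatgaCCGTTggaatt

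The cores began 137, 85 and 56 bases before the gene start in CYCB2;1, which fell at a log2 fold change of -0.91. They began at 172, 124 and 102 bases in CYCB2;2, which had -0.60 and did not pass. They began at 114, 66 and 47 bases in CYCB2;3, which had -0.02 with overlapping groups. CYCB1;3 had its cores at 64, 39 and 5 bases and a log2 fold change of -0.04. CYCB1;1 held 3 cores in another order of strands, with a log2 fold change of -0.40. A match of these letters is a description and not a binding site.

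**Figure D3:**
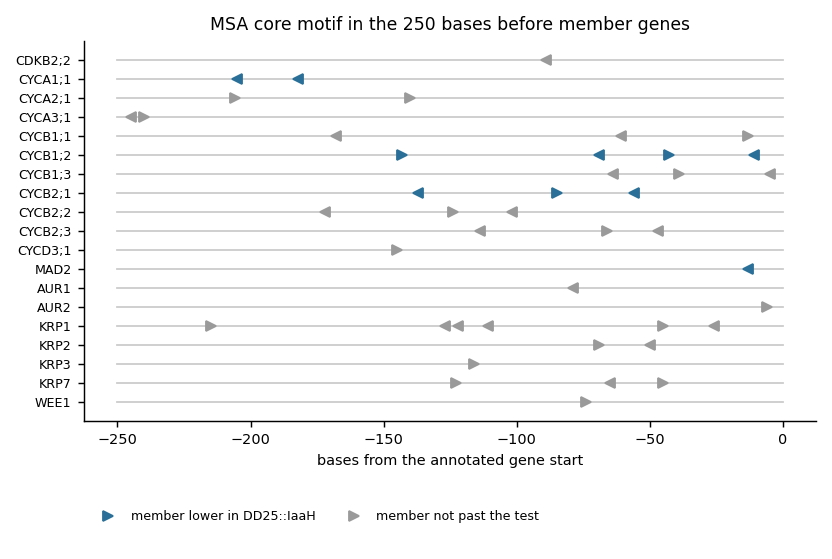
Position of each MSA core, in bases from the annotated gene start, in the 19 member promoters of 250 bases that hold at least 1. The arrow gives the strand, and blue marks members that fell in DD25::IaaH seeds. The 3 CYCB2 promoters and CYCB1;3 share the order minus, plus, minus, and 4 of the 19 members fell.

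Of the 9 tested D-type cyclins, 2 fell, 1 rose and 6 did not pass, with a median log2 fold change of -0.22. These are 22.2% and 11.1% of the class, where 6.72% of all tested genes fell and 8.25% rose. The members moved in both directions. CYCD3;2 and CYCD3;3, cytokinin-responsive cyclins that act on the retinoblastoma-related protein, were the most abundant of the class and fell. CYCD4;2, a low-abundance cyclin known from divisions in the stomatal lineage, rose.

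CYCD3;3 (AT3G50070) had 27.8, 37.7 and 41.5 RPKM in DD25::IaaH libraries and 58.6, 58.8 and 51.6 RPKM in WT libraries, with a log2 fold change of -0.67 ± 0.16 (SE, adjusted p 0.0232). CYCD3;2 (AT5G67260) had 22.5, 32.4 and 26.8 RPKM in DD25::IaaH libraries and 46.6, 40.9 and 34.9 RPKM in WT libraries, with -0.58 ± 0.17 (SE, adjusted p 0.0486). Neither pair of groups overlapped. CYCD3;1, the third of the CYCD3 paralogs, averaged 8.33 ± 1.48 RPKM in DD25::IaaH seeds and 9.79 ± 1.57 RPKM in WT seeds, and its groups overlapped (log2 fold change -0.22, 95% interval -0.64 to 0.19). Of the exact E2F-type sequences searched, TTTCCCGC and TTTGGCGC, only TTTGGCGC occurs in a 250-base window of a member, that of CYCD3;3. That sequence occurs in 0.361% of the 27443 promoters. Other forms of the E2F motif were not searched.

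The CYCD3 calls were lost in 4 fits each without 1 library. Without DD25::IaaH 1 and 2 and without WT 1 and 2 the adjusted p of CYCD3;3 was 0.0654, 0.0521, 0.0782 and 0.0838. For CYCD3;2 it was 0.164 and 0.124 without DD25::IaaH 1 and 3, and 0.156 and 0.134 without WT 1 and 2. With 1 library left out the log2 fold change was -0.79 to -0.50 for the first and -0.71 to -0.45 for the second, and with both WT 1 and WT 2 left out the adjusted p was 0.335 and 0.493. CYCD3;2 shares 103 exon bases on the opposite strand with AT5G67265, which averaged 0.849 ± 0.422 RPKM in DD25::IaaH seeds and 0.934 ± 0.488 RPKM in WT seeds and did not pass.

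CYCD4;2 (AT5G10440) had 7.71, 7.26 and 8.60 RPKM in DD25::IaaH libraries and 4.66, 2.32 and 2.35 RPKM in WT libraries. Every DD25::IaaH library lay above every WT library, and WT 1 was the highest of the WT group. The log2 fold change was 1.27 ± 0.26 (SE, 95% interval 0.69 to 1.85) with an adjusted p of 0.011, and 0.0502 without DD25::IaaH 3. CYCD4;1, its paralog with 71.7% identity in the coding sequence, averaged 4.95 ± 0.466 RPKM in DD25::IaaH seeds and 4.11 ± 0.937 RPKM in WT seeds, with overlapping groups and an adjusted p of 0.468.

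The other D-type cyclins did not pass. CYCD6;1 (AT4G03270), which drives formative divisions in the root, had 5.01, 7.62 and 6.41 RPKM in DD25::IaaH libraries and 10.9, 6.51 and 16.6 RPKM in WT libraries, and WT 2 lay within the DD25::IaaH range. Its adjusted p was 0.161, and 0.0363 without WT 2. CYCD6;1 shares 393 of its 1610 exon bases with a gene on the opposite strand. Whether the counting used strand is not stated, so its level may hold reads of that gene. CYCD1;1, CYCD2;1 and CYCD5;1 had log2 fold changes of -0.37, 0.31 and 0.29 with overlapping groups and adjusted p-values of 0.268 to 0.47.

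**Figure D4:**
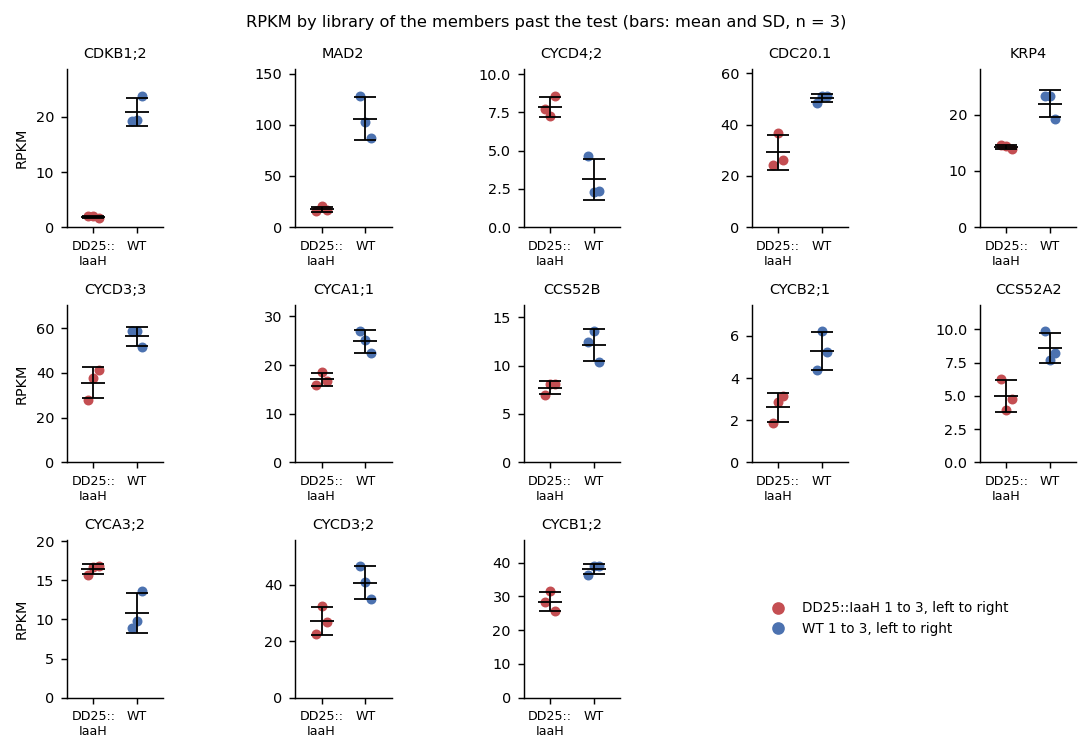
RPKM in each library of the 13 members past the test, DD25::IaaH (red) left and WT (blue) right, with the mean and SD (n = 3) as bars and each axis starting at 0. The groups do not overlap in any panel, and 2 of the 13 rose.

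The APC/C activators had the highest share of members that fell: 3 of 5, or 60%, against 6.72% of all tested genes. The median log2 fold change of these activators was -0.61. Their summed level was 65.2, 82.2 and 65.9 RPKM in DD25::IaaH libraries and 106.0, 106.1 and 105.6 RPKM in WT libraries. CDC20.1 (AT4G33270), which starts anaphase by turning the APC/C on securin and mitotic cyclins, had 24.2, 36.9 and 26.2 RPKM in DD25::IaaH libraries and 48.6, 51.3 and 51.0 RPKM in WT libraries. DD25::IaaH 2 was the highest of its group and still below every WT library. The log2 fold change was -0.80 ± 0.16 (SE, adjusted p 0.0111), and the call held with any 1 library left out. Without WT 1 and WT 2 together its adjusted p was 0.176 at a log2 fold change of -0.82.

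CDC20.2 (AT4G33260) lies next to CDC20.1 and is 95.3% identical to it over the coding sequence, with an identical run of 314 bases. Of all stretches of 125 bases in CDC20.1, 17.0% also occur in CDC20.2, so part of the reads of either gene could be counted for the other. CDC20.2 had 17.1, 21.4 and 14.4 RPKM in DD25::IaaH libraries and 23.6, 20.9 and 25.0 RPKM in WT libraries. These groups overlapped at DD25::IaaH 2 and WT 2, and the log2 fold change of -0.40 had an adjusted p of 0.146.

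CCS52A2 (AT4G11920), an activator that acts after mitosis and in the root meristem, had 6.28, 3.90 and 4.75 RPKM in DD25::IaaH libraries and 9.88, 7.72 and 8.24 RPKM in WT libraries (log2 fold change -0.75 ± 0.20 SE, adjusted p 0.0388). CCS52B (AT5G13840), the mitotic member of the CCS52 group, had 6.95, 8.07 and 8.10 RPKM in DD25::IaaH libraries and 12.4, 13.6 and 10.3 RPKM in WT libraries (-0.61 ± 0.16 SE, adjusted p 0.0324). In both the groups did not overlap. CCS52A1, known for promoting endoreduplication in leaf hairs, averaged 11.7 ± 0.963 RPKM in DD25::IaaH seeds and 11.7 ± 0.746 RPKM in WT seeds, with a 95% interval of the log2 fold change from -0.32 to 0.31.

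Both CCS52 calls were lost in several fits without 1 library. For CCS52A2 the adjusted p was 0.112 and 0.105 without DD25::IaaH 2 and 3, and 0.132, 0.0742 and 0.0516 without WT 1, 2 and 3. For CCS52B it was 0.119, 0.0681 and 0.0701 without DD25::IaaH 1, 2 and 3, and 0.1 and 0.126 without WT 1 and 2. With 1 library left out the log2 fold change was -0.92 to -0.60 for CCS52A2 and -0.72 to -0.53 for CCS52B. With both WT 1 and WT 2 left out, the adjusted p was 0.332 and 0.424, and that log2 fold change of CCS52B was -0.40. CCS52B shares 376 exon bases with AT5G02105, an annotated lncRNA on the opposite strand. Its span also overlaps those of NACA3, at 122 ± 3.96 RPKM in DD25::IaaH seeds and 124 ± 8.05 RPKM in WT seeds, and of the tRNA gene AT5G13845, listed at 0, with 0 shared exon bases. The span of CCS52A2 holds the miRNA gene AT4G05930, with 0 shared exon bases.

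MAD2 (AT3G25980), the spindle checkpoint protein that holds CDC20, fell to about the level of the other members of its class. It had 15.6, 20.4 and 16.5 RPKM in DD25::IaaH libraries and 128, 102 and 87.0 RPKM in WT libraries. The groups were far apart, with WT 1 the highest. The log2 fold change was -2.56 ± 0.17 (SE, 95% interval -2.94 to -2.17) with an adjusted p of 1.82e-05, and MAD2 passed in all 16 alternative settings. The rebuilt reads were 183, 144 and 163 in DD25::IaaH libraries and 2486, 997 and 909 in WT libraries.

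The log2 ratio of MAD2 to CDC20.1, the gene of its binding partner, averaged -0.72 ± 0.12 in DD25::IaaH seeds and 1.06 ± 0.32 in WT seeds (SD, n = 3 each, exact permutation p = 0.1, two-sided, the smallest possible). MAD2 was thus below CDC20.1 in every DD25::IaaH library and above it in every WT library. None of the 125-base stretches of MAD2 occurs in another transcript. MAD2 shares 4 exon bases with AT3G25990 on the opposite strand, which averaged 2.86 ± 0.531 RPKM in DD25::IaaH seeds and 1.91 ± 0.687 RPKM in WT seeds and did not pass. Of the 4 tested genes within 3 loci of MAD2, 0 passed, at log2 fold changes of -0.43 to 0.50.

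The window before MAD2, chr3:9502806-9503055 on the plus strand (RefSeq, TAIR10.1), is shown beside the cyclin windows because MAD2 fell most of the members with an MSA core. Its single core, in capitals, lies on the minus strand, 13 bases before the gene start.
MAD2: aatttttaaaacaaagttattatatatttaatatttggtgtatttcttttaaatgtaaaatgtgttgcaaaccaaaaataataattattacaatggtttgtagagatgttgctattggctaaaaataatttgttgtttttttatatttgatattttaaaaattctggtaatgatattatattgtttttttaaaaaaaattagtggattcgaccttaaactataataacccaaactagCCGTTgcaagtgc

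The 3 Aurora kinases did not pass. AUR1 (AT4G32830), which acts at the spindle and the cell plate, had 24.1, 22.6 and 20.3 RPKM in DD25::IaaH libraries and 25.1, 27.4 and 26.9 RPKM in WT libraries, with non-overlapping groups, a log2 fold change of -0.24 and an adjusted p of 0.232. AUR2, of the same subgroup, had -0.28 (95% interval -0.64 to 0.07), and AUR3, which acts at centromeres, had 0.05 (95% interval -0.31 to 0.42). With genes on the opposite strand, AUR1 shares 290 of its 1510 exon bases, AUR2 877 of 2379 and AUR3 126 of 1207. Whether the counting used strand is not stated, so these levels may hold reads of those genes.

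Of the 9 CDK inhibitors, 1 fell and 8 did not pass, and their median log2 fold change of 0.14 was the only class median above 0. The share that fell was 11.1%, where 6.72% of all tested genes fell. KRP4 (AT2G32710) had 14.6, 14.4 and 13.9 RPKM in DD25::IaaH libraries and 23.4, 23.4 and 19.2 RPKM in WT libraries. The groups did not overlap, and the log2 fold change was -0.60 ± 0.13 (SE, adjusted p 0.0164). The adjusted p was 0.0536 and 0.0564 without DD25::IaaH 1 and 3, and 0.064 and 0.0721 without WT 1 and 2. Without WT 1 and WT 2 together it was 0.296, at a log2 fold change of -0.41. KRP4 shares 926 of its 2391 exon bases on the opposite strand with CB5-B, a cytochrome b5 gene at 107 ± 15.4 RPKM in DD25::IaaH seeds and 82.8 ± 14.0 RPKM in WT seeds that did not pass (log2 fold change 0.38).

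The other KRP genes, whose proteins bind CDK and cyclin and block the kinase, had log2 fold changes of 0.14 (KRP1), -0.41 (KRP2), 0.18 (KRP3), -0.02 (KRP5), 0.03 (KRP6) and 0.18 (KRP7), all with overlapping groups. The sign of KRP6 turned under quantile scaling. SIM (AT5G04470), which promotes endoreduplication in leaf hairs, was the most abundant inhibitor at 64.3 ± 4.35 RPKM in DD25::IaaH seeds and 58.3 ± 5.41 RPKM in WT seeds, and its log2 fold change of 0.14 did not pass. SMR1 (AT3G10525), known for giant cells of the sepal, had 24.8, 34.2 and 31.8 RPKM in DD25::IaaH libraries and 13.2, 21.3 and 27.9 RPKM in WT libraries. DD25::IaaH 1 lay below WT 3, and the adjusted p was 0.17, or 0.0339 without WT 3. SIM shares 249 of its 792 exon bases with a gene on the opposite strand, and SMR1 shares 333 of 826. Whether the counting used strand is not stated, so the levels of both may hold reads of those genes. The summed inhibitor level was 185, 183 and 199 RPKM in DD25::IaaH libraries and 190.1, 195 and 168 RPKM in WT libraries.

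CKS1 and CKS2, adaptors of the CDK complex, had log2 fold changes of -0.30 and -0.24 and did not pass. CKS1 (AT2G27960) had 66.5, 75.9 and 90.4 RPKM in DD25::IaaH libraries and 101, 126 and 66.8 RPKM in WT libraries, so WT 3 lay with the DD25::IaaH libraries. Its adjusted p was 0.425, and 0.0446 without WT 3. WEE1 (AT1G02970), a kinase that inhibits CDKs when DNA is damaged, averaged 7.77 ± 1.21 RPKM in DD25::IaaH seeds and 6.26 ± 1.85 RPKM in WT seeds (log2 fold change 0.31, adjusted p 0.394).

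In 38 further cell cycle genes (the retinoblastoma-related gene with E2F, DP and MYB3R factors, CDK-activating kinases, APC/C subunits and inhibitors, checkpoint genes and further SMR inhibitors), 4 rose, 1 fell and 33 did not pass, with a median log2 fold change of 0.00. Over all tested genes, 8.25% rose and 6.72% fell. DEL2, an atypical E2F factor, had 12.0, 9.49 and 10.3 RPKM in DD25::IaaH libraries and 4.22, 3.096 and 6.14 RPKM in WT libraries (log2 fold change 1.19, adjusted p 0.00954). SMR5, an inhibitor known from DNA damage and oxidative stress, had 2.48, 8.21 and 4.88 RPKM in DD25::IaaH libraries and 0.250, 0.497 and 2.31 RPKM in WT libraries (2.02, adjusted p 0.0367). The groups of both did not overlap. CDC27A, a subunit of the APC/C, and DEL3, another atypical E2F factor, rose by 0.69 and 0.62 on the log2 scale with adjusted p-values of 0.0485 and 0.0493. BUBR1, a checkpoint protein like MAD2, averaged 5.56 ± 0.650 RPKM in DD25::IaaH seeds and 8.69 ± 0.700 RPKM in WT seeds (-0.60, adjusted p 0.0386).

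Of these 5 calls, that of DEL2 held with any 1 library left out. The call of SMR5 was lost without DD25::IaaH 2 or 3 and without WT 1 or 2 (adjusted p 0.126, 0.11, 0.116 and 0.115). CDC27A and BUBR1 passed in 0 of 6 such fits, with adjusted p-values of up to 0.152 and 0.123. DEL3 passed in 1 of 6, the fit without WT 1, with an adjusted p of up to 0.155 in the others. All 5 calls were lost with WT 1 and WT 2 both left out, at an adjusted p of 0.164 for DEL2 (log2 fold change 0.73), 0.515 for SMR5 (0.88), 0.313 for CDC27A, 0.205 for DEL3 and 0.226 for BUBR1.

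Some markers of seed tissues changed with genotype as well, most of them endosperm markers, and their part in the results above was not tested. For the marker counts that follow, the shares over all tested genes are 8.25% that rose and 6.72% that fell. Of 8 tested endosperm markers, 6 rose and 0 fell, and their summed level was 109.0 to 162 RPKM in DD25::IaaH libraries and 11.1 to 13.9 RPKM in WT libraries. In the DD25::IaaH libraries, though not in the WT libraries, most of the sum came from PHE1 and CKX2. PHE1, a MADS-box gene of early endosperm, averaged 76.5 ± 19.4 RPKM in DD25::IaaH seeds and 3.50 ± 1.24 in WT seeds. CKX2, a cytokinin oxidase, averaged 30.7 ± 8.26 RPKM in DD25::IaaH seeds and 1.68 ± 0.343 in WT seeds. AGL62, FIS2, FWA and MINI3 rose too, and MINI3 was at 0 in WT 2 and WT 3. MEA and IKU2 did not pass. PHE1, CKX2, AGL62 and MINI3 passed with any 1 library left out. FIS2 did not pass without DD25::IaaH 1 or 3 (adjusted p 0.0702 and 0.05), and FWA passed in 1 of 6 such fits, the one without WT 3, with an adjusted p of up to 0.103 in the others. PHE1, CKX2 and AGL62 passed with WT 1 and WT 2 both left out, and the adjusted p was 0.0797 for MINI3, 0.192 for FIS2 (log2 fold change 0.84) and 0.458 for FWA (0.68).

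Of 9 tested embryo markers, 0 rose and 1 fell, the embryo factor WOX9, with 8.14 ± 1.84 RPKM in DD25::IaaH seeds and 15.7 ± 2.06 RPKM in WT seeds. It passed with any 1 library left out, and its adjusted p was 0.274 without WT 1 and WT 2 together. The summed embryo level was 103.5 to 114 RPKM in DD25::IaaH libraries and 119 to 136 RPKM in WT libraries. DRN was at 0 in DD25::IaaH 2 and in all WT libraries and was not tested, and WOX2 was at 0 in DD25::IaaH 2. Of 10 seed coat markers, the flavonoid genes BAN and TT12 rose, the laccase gene TT10 fell and 7 did not pass, with a summed level of 3504 to 3805 RPKM in DD25::IaaH libraries and 2692 to 3638 RPKM in WT libraries. With 1 library left out TT10 passed in 6 of 6 fits. BAN passed in 2 of 6, not without DD25::IaaH 2 or 3 or WT 1 or 2 (adjusted p of up to 0.0667), and TT12 in 2 of 6, not without any 1 DD25::IaaH library or WT 1 (up to 0.0794). TT10 passed with WT 1 and WT 2 both left out, and the adjusted p was 0.257 for BAN (log2 fold change 0.46) and 0.14 for TT12 (0.70).

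The position of members along the chromosomes was also recorded. Near-absent genes, a class defined after their values were seen as at least 3 RPKM in every WT library and below a 15th of the lowest WT value in every DD25::IaaH library, numbered 81. Between the first and last of them on each chromosome lay 17 tested members, of which 4 fell (MAD2, CDC20.1, CCS52A2 and CYCD3;3), or 23.5%, where 11.9% of all tested genes in these ranges fell. Of the 34 tested members outside, 7 fell, or 20.6%, where 3.99% of the genes outside fell. What part these ranges have in the members' changes was not tested.

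The 13 calls differed in how they stood up to the settings tried. CDKB1;2 and MAD2 passed in 16 of 16 alternatives, and CDC20.1 and CYCD4;2 in 15. KRP4 passed in 11, CYCD3;3, CYCA1;1 and CYCB2;1 in 9, CCS52A2 and CCS52B in 8, CYCD3;2 in 7, CYCB1;2 in 5 and CYCA3;2 in 4. The sign of the fold change of all 13 was the same in each of the 16. Without WT 1 and WT 2 together, which leaves WT 3 as the lone WT library with its spread taken from the DD25::IaaH group, CDKB1;2 and MAD2 fell and CYCD4;2 rose, with 379 genes falling and 684 rising in all.

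**Figure D5:**
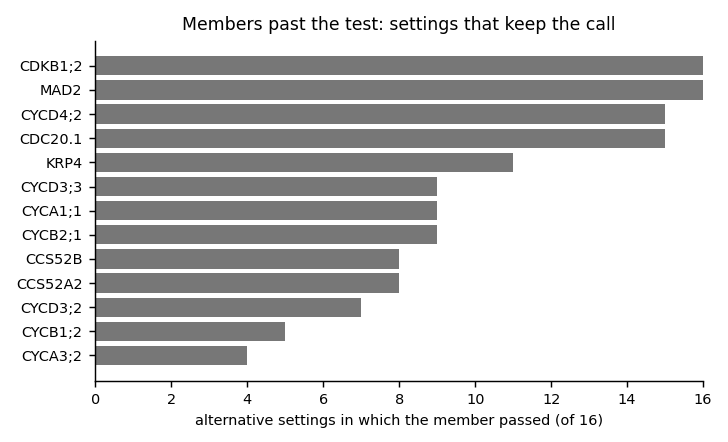
Number of the 16 alternative settings (other scaling, filters, pseudocounts, models and left-out libraries) in which each of the 13 members past the test still passed it in the same direction. The counts run from 16 for the top pair to 4 for the last.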

How the data were processed

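The authors deposited RPKM values, which divide the reads of a gene by its length and by the library's total, for 33323 loci in 6 libraries. The alignment tool TopHat2 2.1.0 and the genome build TAIR10 are named per the submitters' processing notes. How reads were counted, with or without strand, and what became of multiply mapped reads is not given in the sources used here. Because RPKM rises in whole-read steps, the depth of each library was rebuilt from these steps. At the annotated exon length, 29.7% of the 31475 loci above 0 gave whole reads within 0.05 reads, against 1.54% with the steps shifted by 3%. For the other 22138 loci a wide range of lengths was searched until 1 gave whole reads. With so many lengths to try, the resulting 100% is no check of the rebuilt reads. The rebuilt reads of CDKB1;2 and MAD2 rest on such searched lengths. A floor of 3 reads at 1 kb was 0.169 to 0.462 RPKM, counting error only.

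Genes averaging at least 0.5 RPKM were kept (20880), and log2(RPKM + 0.5) was fitted with limma 3.58.1 in R 4.3.3 (eBayes with trend, genotype only, two-sided, Benjamini-Hochberg over all genes kept), after a check on simulated data. Fold changes on this scale understate those of low genes. All 6 columns of per-sample values matched a label, and 0 were left unused. Alternatives were another pseudocount or filter, 2 scalings, no trend, limma voom on rebuilt reads, a replicate block and left-out libraries.

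Gene names, overlaps, promoter windows and their coordinates come from RefSeq on TAIR10.1, whose name differs from the authors' build. It has 32835 of the loci by identifier. Members, lists and tests were chosen with earlier results of these data known. Every member is named. Named too are up to 4 called genes in each direction of 38 further cell cycle genes, the called markers, and genes overlapping a called member. Outside this rule, MEA, IKU2, DRN and WOX2 are named to complete the marker lists. The further list held 43 genes, of which 5 were dropped because the reference names their loci otherwise.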

Additional observations from a re-analysis of the deposited data

How the results depend on the processing

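Of 815 values of single members under 16 alternatives, 701 kept their direction and side of the threshold, 75 lost the call, 7 gained it and 32 turned sign, the last in 14 members, 0 of them past the test. The cause was not tested. Members rising numbered 1, against 2, with a pseudocount of 0.1, no filter, median-of-ratios scaling, quantile scaling, no trend, the replicate block, and without WT 1 and WT 2 together. Members falling numbered 6 with no filter, 6 with no trend, 7 with the block and 2 without both libraries, against 11. Without both, 684 genes rose, 379 fell and the members' median was -0.18. Under quantile scaling the median was -0.32, and 52% of calls were lower, against 44.9% (35.7% without both). With 1 library left out, 0 to 3 members rose, 3 to 10 fell, 1012 to 2223 genes rose, 850 to 1910 fell, and the median was -0.25 to -0.19. Signs turned for KRP6 (-0.018 under quantile scaling), CDKA;1 (0.0079 under voom), and, without both WT libraries, CYCA3;1 (0.036), CCS52A1 (0.075), KRP5 (0.42), AUR3 (-0.19), CYCD5;1 (-0.014), CKS1 (0.20) and WEE1 (-0.11). With 1 library left out they turned for CYCA3;1 -0.14 to 0.076, CYCB2;3 -0.15 to 0.047, CCS52A1 -0.051 to 0.061, KRP5 -0.24 to 0.11, CDKA;1 -0.13 to 0.074, CDKB2;2 -0.12 to 0.058, CYCB1;3 -0.081 to 0.027, CYCB3;1 -0.18 to 0.071, KRP6 -0.076 to 0.14, KRP7 -0.14 to 0.65 and AUR3 -0.047 to 0.17. Deviations of same-numbered libraries from their group means had correlations of -0.08, -0.03 and -0.10, and those of other pairs -0.04 to 0.12. With 3 libraries a group, these values cannot tell whether the replicate numbers pair the libraries. With the replicate block 1368 genes rose and 1061 fell, against 1723 and 1404. The difference in the log2 ratio of CDKB1;2 to CDKB1;1 was -3.68 to -3.46 with 1 library left out, and that of MAD2 to CDC20.1 -1.92 to -1.60. Depth limits the lowest members: CYCD7;1 had too few reads to test.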

Other observations

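A few genes within 3 loci of called members, named here after their values were seen, changed far more than the members beside them. They were 2 of 5 tested neighbours of CYCA1;1, 1 of 6 of CYCD3;2 and 1 of 5 of CCS52B. No tested neighbour of the other called members passed. Over all tested genes, 8.25% rose and 6.72% fell. Within 3 loci of CYCA1;1, GA20OX5, which the reference names as a gibberellin 20-oxidase, averaged 18.3 ± 7.38 RPKM in DD25::IaaH seeds and 0.796 ± 0.359 RPKM in WT seeds (log2 fold change 3.83, limma adjusted p 6.7e-05). AT1G44130, on the other side of CYCA1;1, averaged 19.3 ± 3.88 RPKM in DD25::IaaH seeds and 0.369 ± 0.489 RPKM in WT seeds (4.63, adjusted p 5.71e-05). AT5G67245, near CYCD3;2, averaged 1.09 ± 0.527 RPKM in DD25::IaaH seeds and 16.0 ± 4.57 RPKM in WT seeds (-3.40, adjusted p 7.64e-05). AT5G13825, near CCS52B, averaged 22.0 ± 3.72 RPKM in DD25::IaaH seeds and 1.73 ± 1.18 RPKM in WT seeds (3.47, adjusted p 0.000238). CYCA1;1 fell while both of its changed neighbours rose, and CCS52B fell while its neighbour rose. All 4 passed in 16 of 16 alternatives.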
